A study of Rattus norvegicus with 8 samples.

Results

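The genes described here are 4 phospholipases C of the beta class (Plcb1, Plcb2, Plcb3 and Plcb4) and 5 protein kinases C (Prkca, Prkcb, Prkcd, Prkce and Prkcz), measured in the dentate gyrus (DG) of seizured rats with and without estradiol. They were chosen by name: every non-control spot of the array whose gene name is one of these 9 symbols was taken, which gave 59 of 43379 spots, 14 of 41012 probes and 9 of 35199 gene names. All animals were adult female Sprague-Dawley rats, ovariectomized (OVX) 1 week before injections began, that later went into status epilepticus (SE), a prolonged seizure, after kainic acid. The 4 COS rats received oil, and the 4 CES rats received 4 doses of 2 µg of estradiol (E2), given daily. The labels put 2 of these doses before SE and 2 after it, whereas the methods of the study put all 4 before SE. Per the labels kainic acid was given i.p. at 16 mg/kg and SE was ended after 5 h with pentobarbital, whereas the methods of the study name another dose, another anticonvulsant and other times. Rats without SE were not analysed here, so nothing below separates an effect of E2 on seizures from an effect of E2 on the tissue.

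When a receptor coupled to Gq is occupied, phospholipase C beta splits the membrane lipid PIP2 into inositol trisphosphate (IP3), which releases calcium from internal stores, and diacylglycerol (DAG), which stays in the membrane. DAG and calcium together switch on the conventional protein kinases C (among them alpha and beta), DAG alone switches on a class that calcium does not affect (delta, epsilon, eta and theta), and the atypical ones (zeta and iota) need neither. In the hippocampus these kinases act in transmitter release, synaptic plasticity and the response to injury.

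Each channel of a 2-colour array held 1 rat, and each of the 4 arrays held 2 rats of the same group, one in Cy3 (replicates 1 and 3) and one in Cy5 (replicates 2 and 4). The 4 arrays lie on 1 slide, so the dye was balanced between groups while the array was nested in them. Between 32381 and 38553 spots per COS rat and between 30690 and 35352 per CES rat were at least 2 times above their local background, and no spot was saturated. CES replicate 2 stood apart: across all genes it correlated more closely with the COS rats (r = 0.974 to 0.983) than with the other CES rats (r = 0.955 to 0.964), which correlated with COS at 0.933 to 0.944. The calls are therefore given with and without it. Of the markers of DG granule cells, Calb1, C1ql2, C1ql3 and Neurod1 were well above background in every rat, whereas Prox1 and Lct could not be quantified. In bulk tissue, fewer cells of a type and less RNA per cell cannot be told apart. Nothing in the labels says how rats were assigned to litters or days, so the p-values measure the spread between these samples.

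A level here is the log2 of the background-subtracted signal divided by the median valid spot of its channel, averaged over the spots of a gene, so that 0 is the median spot. The difference is CES minus COS, fitted with limma over all 21332 quantified genes with a Benjamini-Hochberg threshold of 0.05 ("called" below). Across all genes the median difference was -0.25, and a gene's distance from that median is given as its relative difference. When each channel was scaled instead over the spots valid in every rat (the common scaling), the median moved to 0.15. Calls therefore depend on the scaling, and where the common scaling ended a call this is said. A rat's median over all genes was 0.61 to 1.30 in COS and 0.36 to 0.89 in CES, so the overlap of groups depends on the scaling too. Levels and overlaps are by the first scaling, called the methods' scaling, unless said otherwise. It leaves out the iterative renormalization across labels and conditions that the methods of the study also describe. A level less its rat's median over all genes is called centred. As these medians ran lower in CES, centring raises CES against COS in every gene. The share of all genes whose groups separate by centred level was not counted. Such a separation is therefore not shown to be particular to a gene. Levels are compared between rats and never between probes.

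Of the 9 genes, 8 were quantified in every rat. Plcb1 was called higher in CES, Plcb3 and Prkcd were called lower, and Plcb4, Prkca, Prkcb, Prkce and Prkcz were not called. Over all quantified genes, 5.80% were called higher and 28.3% lower. Under the common scaling 3 of the 8 were called higher (Plcb1, Plcb4 and Prkcb) and 0 lower, against 15.7% and 8.05% of all genes; at an unadjusted p under 0.05 limma gave 5 higher and 2 lower by that scaling (26.9% and 14.9% of all genes) and 1 higher and 2 lower by the methods' scaling (8.66% and 36.5%). The median relative difference of the 8 was 0.34, where 0 is the median of all genes by construction. Leaving out CES replicate 2 kept the same calls, with 8.70% of all genes then called higher and 32.7% lower.

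**Figure D1:**
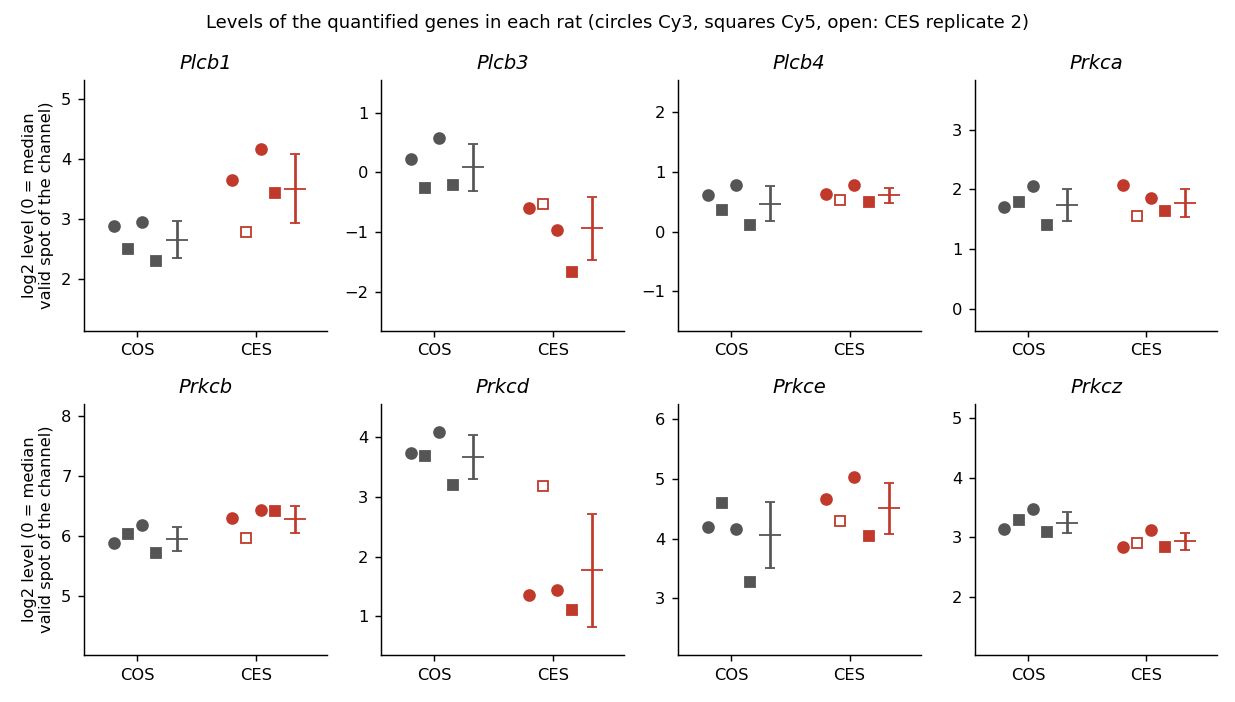
Log2 level of the 8 quantified genes in each rat (0 = median valid spot of the channel; every panel spans the same log2 range). Circles are Cy3 rats, squares Cy5 rats, the open square is CES replicate 2, and bars give the mean and SD of 4 rats. In Prkcd the open square (3.18) lies beside the lowest COS rat (3.19) and above the other CES rats (1.11 to 1.44).

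Phospholipases C beta. Plcb1 is the form most abundant in hippocampal and cortical neurons, where it follows muscarinic and metabotropic glutamate receptors. The array carries 2 probes for it, and the first of them, which starts at base 3036 of the transcript and lies at rn4 chr3:123407316-123407375 on the plus strand, is shown because both probes gave the same call (plain lower case, as the whole probe is the target):
Plcb1: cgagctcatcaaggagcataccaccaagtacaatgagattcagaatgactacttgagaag
The log2 level of Plcb1 was 2.88, 2.50, 2.94 and 2.29 in COS replicates 1 to 4 and 3.64, 2.78, 4.17 and 3.43 in CES replicates 1 to 4. By the methods' scaling every CES rat but replicate 2 was above all COS rats, and replicate 2 lay within them. By centred level all 4 CES rats (2.24 to 3.28) were above COS (1.62 to 1.71). The group means were 2.65 ± 0.31 and 3.51 ± 0.57 (SD, n = 4), a difference of 0.85 (SE 0.20, limma adjusted p = 0.0121), or 1.81-fold. The rise was 1.00 among Cy3 rats and 0.71 among Cy5 rats, 1.01 without CES replicate 2 (adjusted p = 0.00190), and 1.25 under the common scaling (adjusted p = 0.0192). The probes rose by 0.93 (base 3036, adjusted p = 0.0143) and 0.76 (base 4948, adjusted p = 0.0117). Plcb1 was called under 20 of 24 alternatives and was higher in CES under all of them.

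Plcb3, the widely expressed form that also responds strongly to G protein beta-gamma subunits, moved the other way. Its probe starts at base 3217 and lies at rn4 chr1:209629346-209629405 on the minus strand, and it is shown as the reading on which the only fall among the phospholipases C beta rests:
Plcb3: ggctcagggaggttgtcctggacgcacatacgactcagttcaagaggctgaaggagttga
The log2 level of Plcb3 was 0.22, -0.27, 0.57 and -0.21 in COS and -0.59, -0.53, -0.97 and -1.68 in CES. By the methods' scaling all 4 CES rats, replicate 2 included, were below all 4 COS rats. By that scaling 19.8% of all genes had CES levels wholly below COS and 1.61% wholly above. The centred levels of Plcb3 overlapped, with CES replicate 2 at -1.08 and COS replicate 2 at -1.15. The difference was -1.02 (SE 0.25, adjusted p = 0.0136), which is 2.03-fold more in COS, and -1.28 without CES replicate 2 (adjusted p = 0.000500). Plcb3 was dim, with levels near or below the median spot, and well above background in 4 COS but only 3 CES rats. The fall kept its sign under all 23 alternatives, was called under 14 of them, and under the common scaling stood at -0.62 (adjusted p = 0.0940).

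Plcb4 works downstream of metabotropic glutamate receptors in cerebellum and thalamus. Its log2 level was 0.62, 0.37, 0.78 and 0.11 in COS and 0.63, 0.53, 0.78 and 0.50 in CES. By the methods' scaling the CES rats lay among the upper COS rats, and their SD of 0.13 was larger than that of only 2.54% of genes. By centred level the CES rats (-0.11 to 0.13) were wholly above COS (-0.55 to -0.50). The difference was 0.14 (SE 0.16, adjusted p = 0.518) by the methods' scaling and 0.54 (adjusted p = 0.0246) by the common scaling, and 0.11 (adjusted p = 0.645) without CES replicate 2. Plcb2, the form of blood cells, gave too little signal: foreground over local background was 2.43, 2.18, 3.41 and 2.79 in COS and 2.07, 2.70, 1.89 and 1.91 in CES. Only CES replicate 2 had Plcb2 well above background by the scanner software's mark, and no fold is given for it.

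Conventional protein kinases C. Prkca showed no difference that the test could separate from the spread. Its log2 level was 1.71, 1.78, 2.05 and 1.40 in COS and 2.07, 1.54, 1.86 and 1.63 in CES, interleaved by the methods' scaling. Its centred level was 0.55, 0.90, 0.75 and 0.79 in COS and 1.39, 1.00, 0.97 and 1.27 in CES, with no overlap. Under the common scaling the difference was 0.44 (limma adjusted p = 0.102). By the methods' scaling the difference was 0.04 (SE 0.17, adjusted p = 0.875), the relative difference was 0.29, and the difference without CES replicate 2 was 0.06 (adjusted p = 0.805). Prkca was called under none of 24 alternatives, with adjusted p from 0.0640 to 0.970.

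Prkcb encodes both splice forms of the beta kinase, which differ at the C-terminus. Its log2 level was 5.88, 6.04, 6.18 and 5.72 in COS and 6.29, 5.96, 6.44 and 6.41 in CES. As for Plcb1, by the methods' scaling CES replicates 1, 3 and 4 were above every COS rat and replicate 2 among them. By centred level all CES rats (5.42 to 6.05) were above COS (4.71 to 5.16). The difference was 0.32 (SE 0.18, adjusted p = 0.178) by the methods' scaling and 0.72 (adjusted p = 0.0323) by the common scaling, and 0.42 (adjusted p = 0.0872) without CES replicate 2, and it was called under 4 of 24 alternatives. The array has a probe on each of the 2 transcript records of Prkcb, at rn4 chr1:181453366-181453425 and chr1:181459684-181459743, both on the plus strand, of which the first 30 bases are given so that the probes can be told apart:
Prkcb, first position: agtttggagcatctcgaggagatggaatta
Prkcb, second position: gttcctggtcaaagtttttacagttactct
The probe at the first position read 3.11, 2.99, 3.18 and 2.58 in COS and 3.70, 2.73, 4.20 and 3.76 in CES, a difference of 0.64 (adjusted p = 0.0699). The one at the second position differed by 0.32 (adjusted p = 0.184). Both were called by the common scaling, at 1.04 (adjusted p = 0.0405) and 0.72 (adjusted p = 0.0329). The ratio between the 2 probes differed by 0.32 between the groups and was not called (limma adjusted p = 0.359). Whether each probe reads only its own transcript record was not checked.

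Calcium-independent protein kinases C. Prkcd, the delta kinase, is known for its part in cell death after injury and for its expression in thalamus and in myeloid cells. It showed the largest difference of the 8 genes. All 10 of its spots carry the same probe, at rn4 chr16:5954516-5954575 on the minus strand, starting at base 2553 of the transcript, whose first 30 bases are shown as the sequence behind that difference:
Prkcd: actgtttgtgaatttgccttccttttgcca
The log2 level of Prkcd was 3.73, 3.68, 4.09 and 3.19 in COS and 1.36, 3.18, 1.44 and 1.11 in CES. CES replicates 1, 3 and 4 formed a low set. Replicate 2 stood at the edge of the COS range, so by the methods' scaling the groups touched without overlapping. Its centred level, 2.64, lay within that of COS (2.56 to 2.80). The means were 3.67 ± 0.37 and 1.77 ± 0.95 (SD, n = 4), a difference of -1.90 (SE 0.42, adjusted p = 0.00925), which is 3.74-fold more in COS. The fall was -2.51 among Cy3 rats and -1.29 among Cy5 rats, where replicate 2 sits, and -2.44 without that rat (adjusted p = 1.35e-05). The SD within CES was larger than in 93.5% of genes. Prkcd was lower in CES under all 24 alternatives and called under 16, and the common scaling gave -1.50 (adjusted p = 0.0533).

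Markers of several cell types differed between the groups as well. Of 10 markers of microglia and macrophages, all quantified, 4 were called lower against 28.3% of all genes (Itgam by -1.92, Cd68 by -2.19, Csf1r by -0.92 and C1qa by -0.86), 1 was called higher (P2ry12 by 0.93) and 5 were not called, among them Aif1 and Cx3cr1. By the common scaling Cd68 was still called lower and P2ry12 higher, while Itgam, Csf1r and C1qa were not called (adjusted p = 0.0769, 0.0616 and 0.303). Their summed level was 6.77, 6.40, 7.05 and 6.40 in COS and 5.74, 6.30, 6.31 and 5.92 in CES. By the methods' scaling all CES rats were below all COS rats, as in 19.8% of all genes. CES replicates 2 and 3 had the highest sums of their group. Their medians over all genes were 0.54 and 0.89, so the order of the rats depends on the scaling. Of 6 quantified endothelial markers 4 were called lower and 1 higher (1 and 1 under the common scaling), with a sum of 5.25 to 5.88 in COS and 4.56 to 5.37 in CES, of which CES replicate 2 was the highest. Thalamic markers were called lower in 2 of 6 cases (1 lower and 1 higher under the common scaling), with a sum of 4.03 to 4.80 in COS and 3.79 to 4.35 in CES, CES replicate 2 being lowest. DG granule cell markers were called lower in 3 of 7 cases and higher in 1 (0 and 1 under the common scaling, by limma), with sums of 4.55 to 5.53 and 4.70 to 5.52. Astrocyte markers were called higher in 3 of 7 cases and lower in 1 (2 and 0 under the common scaling), with sums of 7.87 to 8.07 and 7.79 to 8.50. The part of these cells in the Prkcd result was not tested.

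The genes whose level followed Prkcd most closely over the 8 rats, among 13679 genes well above background in every rat, were Col11a1 (r = 0.995), a fibrillar collagen, Gpr84 (r = 0.995), a receptor of activated myeloid cells, and Mars (r = 0.995), methionyl-tRNA synthetase. Under the common scaling r with Prkcd was 0.993 for Gpr84, 0.975 for Col11a1 and 0.859 for Mars, so the order depends on the scaling. In all 790 genes passed r = 0.95 with Prkcd and 399 with Plcb1. For Plcb1 the closest were a transcript cluster named TC613656 (r = 0.994), RGD1311899 (r = 0.993) and the cDNA BC092657 (r = 0.993). The 8 points share the group difference and the dye, so these values describe likeness only.

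**Figure D2:**
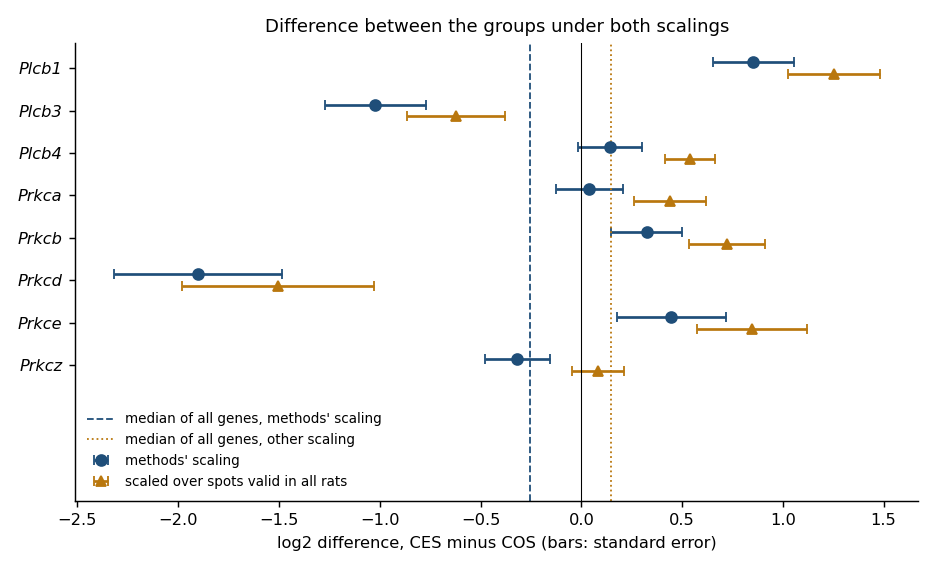
Log2 difference (CES minus COS) of each quantified gene, with its standard error, by the methods' scaling (circles) and by the common scaling (triangles). The dashed and dotted lines mark the median of all genes, -0.25 and 0.15. Plcb1 lies to the right of both medians, Plcb3 and Prkcd lie to the left of both, and the remaining genes lie between -0.32 and 0.45 by the methods' scaling.

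Prkce, the epsilon kinase, acts in presynaptic terminals and in tolerance to ischemia. Averaged over its 12 spots, its log2 level was 4.20, 4.60, 4.16 and 3.28 in COS and 4.66, 4.29, 5.03 and 4.05 in CES, which overlap. The difference of 0.45 (SE 0.27, adjusted p = 0.227; 0.85 with adjusted p = 0.0559 under the common scaling; 0.44 with adjusted p = 0.258 without CES replicate 2) was called under 1 of 24 alternatives, the one without COS replicate 2 (adjusted p = 0.0244). The 3 probes of this gene did not read alike, so their sequences and values are set out one by one. The first and the second have 1 spot each and the third has 10, so the average over spots is mostly the third. The first probe begins at base 424 of the transcript (rn4 chr6:9631659-9631718, plus strand), the second at base 2304 (chr6:10096921-10096980) and the third at base 2399 (chr6:10097016-10097075), the last given by its first 30 bases:
Prkce, base 424: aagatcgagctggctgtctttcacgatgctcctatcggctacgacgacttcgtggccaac
Prkce, base 2304: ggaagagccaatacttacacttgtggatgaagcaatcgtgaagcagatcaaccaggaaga
Prkce, base 2399: tgccctgagaaactgcttcacatggagtta
At base 424 the log2 level was 0.65, 0.71, 0.56 and 0.37 in COS and -0.15, -0.33, 0.27 and -0.60 in CES. There all 4 CES rats were below all 4 COS rats, by -0.78 on average (SE 0.19, adjusted p = 0.0126 over 25698 probes, of which 5.48% were called higher and 29.0% lower). This difference was -0.38 by the common scaling (adjusted p = 0.180), by which 14.9% of probes were called higher and 8.22% lower. At base 2304 it was 3.83, 4.24, 3.57 and 2.77 in COS and 4.37, 4.03, 4.89 and 3.97 in CES, a difference of 0.71 (adjusted p = 0.0874; 1.11 and 0.0358 under the common scaling). At base 2399 it was 4.36, 4.75, 4.33 and 3.44 in COS and 4.81, 4.45, 5.17 and 4.18 in CES, a difference of 0.43 (adjusted p = 0.238). By the methods' scaling both readings near the 3′ end therefore had overlapping groups with a higher CES mean, opposite in sign to the reading near the 5′ end. The signs were also opposite by the common scaling, where the base 2399 probe differed by 0.83. Whether the groups overlap at a single probe depends on the scaling.

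Because the ratio of 2 probes in a channel does not depend on the scaling, it was fitted across all 3524 genes with several quantified probes. For Prkce the log2 ratio of the base 424 probe to the base 2399 probe was -3.71, -4.05, -3.77 and -3.07 in COS and -4.96, -4.78, -4.90 and -4.79 in CES. The base 424 side of this ratio is 1 spot per rat, at a level near the median spot. The CES rats lay close together and wholly below COS, with replicate 2 among its group. The difference was -1.21 (SE 0.27, unadjusted p = 0.00278, adjusted p = 0.0812), lower than in all but 1.56% of the genes, and so did not pass the threshold. Without CES replicate 2 it was again -1.21 (adjusted p = 0.0898), and over the alternatives it ran from -1.39 to -0.98, with adjusted p from 0.0157 to 0.690. It passed in 3 of these, at an adjusted p of 0.0346 when rats of the same number were blocked, 0.0157 when the array block was left out and 0.0261 when the dye term was. Over all genes limma called 0 ratios (0%) and the methods' t-test 76, 817 had an unadjusted limma p under 0.05, the median difference was -0.07 and 19.8% had groups that did not overlap. Among 1777 genes with probes at least 1000 bases apart the median was -0.10. The same ratio differed by 0.17 for Plcb1 (adjusted p = 0.598) and by 0.10 for Prkcz (adjusted p = 0.770), whose first probe was well above background in only 1 COS and 2 CES rats.

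**Figure D3:**
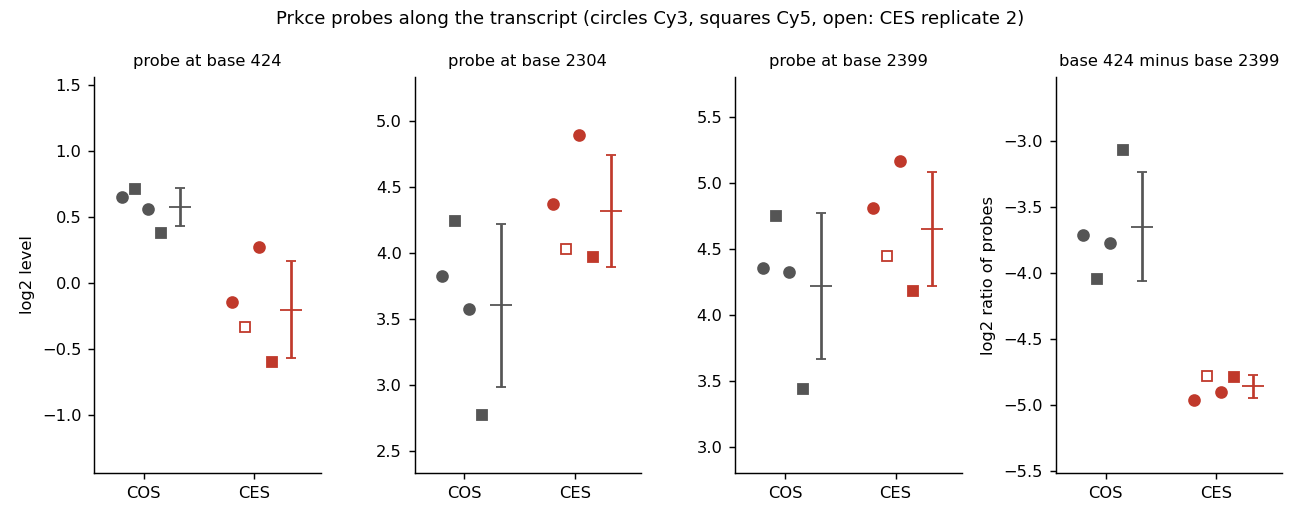
Log2 level of the 3 Prkce probes, named by the transcript base at which they begin, and the log2 ratio of the first to the last, in each rat (symbols as in the plot of levels by rat, bars mean and SD of 4 rats). By the methods' scaling the CES rats (-0.60 to 0.27) lie below the COS rats (0.37 to 0.71) at base 424, and the groups overlap at the other 2 probes. The ratio, which does not depend on the scaling, lies between -4.96 and -4.78 in CES and between -4.05 and -3.07 in COS. The first 2 probes have 1 spot each and the last has 10.

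Atypical protein kinases C. Prkcz gives rise to the full zeta kinase and, in brain, to PKM zeta, a form without the regulatory domain that has been studied in the maintenance of memory. Its log2 level was 3.15, 3.29, 3.47 and 3.09 in COS and 2.84, 2.91, 3.13 and 2.85 in CES. The groups overlap by a single pair, CES replicate 3 and COS replicate 4, and the spread was small in both, with SDs of 0.17 and 0.13. The difference was -0.32 (SE 0.16, adjusted p = 0.152), close to the median of all genes (-0.06 relative to it), and 0.08 by the common scaling (adjusted p = 0.645). Leaving out CES replicate 2 gave -0.33 (adjusted p = 0.165). Prkcz was called under none of 24 alternatives. The array has a probe toward each end of its transcript, and the files do not say which form each reads. The one toward the 5′ end was well above background in only 1 COS and 2 CES rats, and its difference was -0.22 (adjusted p = 0.486).

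Prkch, Prkci and Prkcq, further protein kinases C, were set beside these. Prkch, the eta kinase, was lower by -0.73 (adjusted p = 0.0276; -0.33 with 0.221 under the common scaling and -0.91 with 0.00430 without CES replicate 2). Prkci differed by -0.38 (adjusted p = 0.162) and Prkcq by -0.35 (adjusted p = 0.153). All 3 were dim, well above background in at most 3 of 4 COS rats and 2 of 4 CES rats.

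Around these enzymes a list of 102 genes of the same pathway was followed, of which 96 are on the array and 87 were quantified. Of the 87, 13 were called higher, 23 lower and 51 were not called, with a median relative difference of 0.16, beside 5.80% higher and 28.3% lower of all genes. Under the common scaling 21 were called higher and 8 lower, beside 15.7% and 8.05% of all genes. The sign of the balance thus depends on the scaling. Without CES replicate 2, 17 were called higher and 24 lower, beside 8.70% and 32.7%, and each call given below held. Calls that the common scaling ended are named with its adjusted p. Pyramidal cell markers of CA1 and CA3 were called higher in 4 of 6 quantified cases and lower in 1, with a summed level of 4.85 to 5.74 in COS and 5.56 to 6.43 in CES and CES replicate 2 lowest of its group, and interneuron markers were called lower in 3 of 7, with a summed level of 8.50 to 9.15 in COS and 6.89 to 8.32 in CES, CES replicate 2 being the highest of its group. The common scaling made these counts 4 higher and 0 lower for pyramidal cells (limma), and 1 higher and 2 lower for interneurons. The part of either in the neuronal genes below was not tested.

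Upstream of phospholipase C, 3 of 13 quantified receptors coupled to Gq were called higher and 3 lower (3 and 1 under the common scaling). Adra1d, the alpha-1D adrenergic receptor, had the largest rise of the list: its log2 level was 2.99, 1.53, 3.44 and 2.40 in COS and 5.49, 3.92, 5.42 and 4.93 in CES. No CES rat came as low as any COS rat, which the rule for naming this gene required. The difference was 2.35 (SE 0.27, adjusted p = 0.00301, 5.10-fold), and under the common scaling it was 2.75 (adjusted p = 0.0180). Grm5, a metabotropic glutamate receptor that drives phospholipase C beta, rose by 0.96 (adjusted p = 0.0164), with groups that overlapped. P2ry6, a nucleotide receptor of microglia, read 3.62, 2.96, 3.82 and 2.89 in COS and 1.17, 2.85, 1.76 and 1.29 in CES, so that CES replicate 2 again lay beside COS. It differed by -1.55 (adjusted p = 0.0129), was called under 14 of 24 alternatives, and under the common scaling differed by -1.15 and was not called (adjusted p = 0.0905). Hrh1, the histamine H1 receptor, and Tacr1, the substance P receptor, fell by 1.17 and 1.29 on the log2 scale, and Tacr1 was not called under the common scaling (adjusted p = 0.0602).

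Of the Gq class alpha subunits, Gnaq and Gna11 were not called (-0.20 and -0.08), and Gna14 rose by 1.15 (adjusted p = 0.00888). Of 4 quantified RGS proteins, which speed the switching off of Gq, 3 were called lower and 1 was not called. Rgs4 read 5.23, 5.31, 5.94 and 4.94 in COS and 3.07, 4.72, 2.39 and 2.52 in CES, a difference of -2.18 (SE 0.46, adjusted p = 0.00834, 4.53-fold more in COS). Without spots marked as outliers the difference in Rgs4 was -1.44 (limma adjusted p = 0.0137), so its size depends on such a spot. Rgs2 differed by -1.45 (adjusted p = 0.00914) and Rgs3 by -0.62 (adjusted p = 0.0303). In Rgs4 as in Prkcd, CES replicate 2 stood nearest to COS. Under the common scaling Rgs4 was the only one of the 3 still called (-1.78, adjusted p = 0.0435; Rgs2 0.0511 and Rgs3 0.272), and Rgs8, not called before (0.21), was called higher at 0.61.

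Of 8 quantified phospholipases C of other classes, 1 was called higher and 3 lower. The one higher was Plcd4, by 0.71 (adjusted p = 0.0108). Plcg2, the gamma form of immune cells, differed by -1.41 (adjusted p = 0.00781), Plce1 by -1.30 (adjusted p = 0.00702) and Plcd1 by -1.20 (adjusted p = 0.0124). Under the common scaling the list had 1 called higher and 1 lower, as Plcg2 (adjusted p = 0.0522) and Plcd1 (-0.80, adjusted p = 0.0859) were no longer called. Plcg2 was well above background in only 2 CES rats.

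On the IP3 branch, Itpka, the neuronal kinase that phosphorylates IP3 in dendritic spines, and Itpkc, a related kinase, moved in opposite directions. The log2 level of Itpka was 4.85, 4.92, 5.20 and 4.96 in COS and 6.59, 5.53, 6.54 and 6.82 in CES, a rise of 1.39 (SE 0.26, adjusted p = 0.00560). Itpkc read 2.66, 2.78, 2.93 and 2.01 in COS and 0.61, 1.49, 0.67 and 0.14 in CES, a difference of -1.87 (SE 0.30, adjusted p = 0.00419). Neither pair of groups overlapped, which the rule for naming these genes required. Both calls held under the common scaling (adjusted p = 0.0214 and 0.0213). Itpr1, the main IP3 receptor of neurons, rose by 0.95 (adjusted p = 0.0118), and Inpp5a, which removes a phosphate from IP3, differed by -1.09 (adjusted p = 0.00902; -0.69 and no call under the common scaling, adjusted p = 0.0531). Of 8 genes that supply phosphoinositides, 3 were called lower and 1 higher, among them Pitpna, a lipid transfer protein, by -0.70 (adjusted p = 0.0218). By the common scaling 2 of these were called higher and 0 lower by limma, with Pitpna at -0.30 (adjusted p = 0.162), so the balance turned.

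On the DAG branch, 2 of 6 diacylglycerol kinases, which consume DAG, were called higher and 4 were not called. Dgkg read 3.60, 3.16, 4.00 and 2.79 in COS and 5.46, 4.26, 5.26 and 4.73 in CES, a rise of 1.54 (SE 0.18, adjusted p = 0.00310), and Dgkb rose by 0.65 (adjusted p = 0.0225). Of other proteins that bind DAG, Chn1, a Rac-inactivating protein of neurons, rose by 0.99 (adjusted p = 0.00834) and Unc13b, a synaptic vesicle priming factor, differed by -0.79 (adjusted p = 0.0170; -0.39 and no call under the common scaling, adjusted p = 0.191). Prkd3, a protein kinase D, which DAG and protein kinase C activate, differed by -1.34 (adjusted p = 0.00401) and Pkn2 by -1.01 (adjusted p = 0.00866; no call under the common scaling, adjusted p = 0.0517). Pkn2 was dim, well above background in 4 COS but only 2 CES rats. Of 3 channels that DAG opens, Trpc6 was called lower, by -0.89 (adjusted p = 0.0130), under 15 of 24 alternatives but not under the common scaling (-0.49, adjusted p = 0.0817).

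Of 17 substrates and anchors of protein kinase C, 4 were called lower and 1 higher, and 3 lower and 3 higher under the common scaling. Akap12, a scaffold that binds protein kinases A and C, read 3.36, 3.71, 3.69 and 3.45 in COS and 0.84, 2.23, 1.23 and 0.53 in CES, the largest fall called in the list. The difference was -2.34 (SE 0.32, adjusted p = 0.00375, 5.07-fold more in COS; -1.94 with adjusted p = 0.0191 under the common scaling). Marcksl1, a membrane-bound substrate, differed by -1.40 (adjusted p = 0.00401), Gnb2l1, the receptor for activated C kinase, by -1.19 (adjusted p = 0.00533) and Pick1 by -0.51 (adjusted p = 0.0367; -0.11 and no call under the common scaling, adjusted p = 0.568). Akap5, the anchor of kinases at excitatory synapses, rose by 1.19 (adjusted p = 0.0187).

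**Figure D4:**
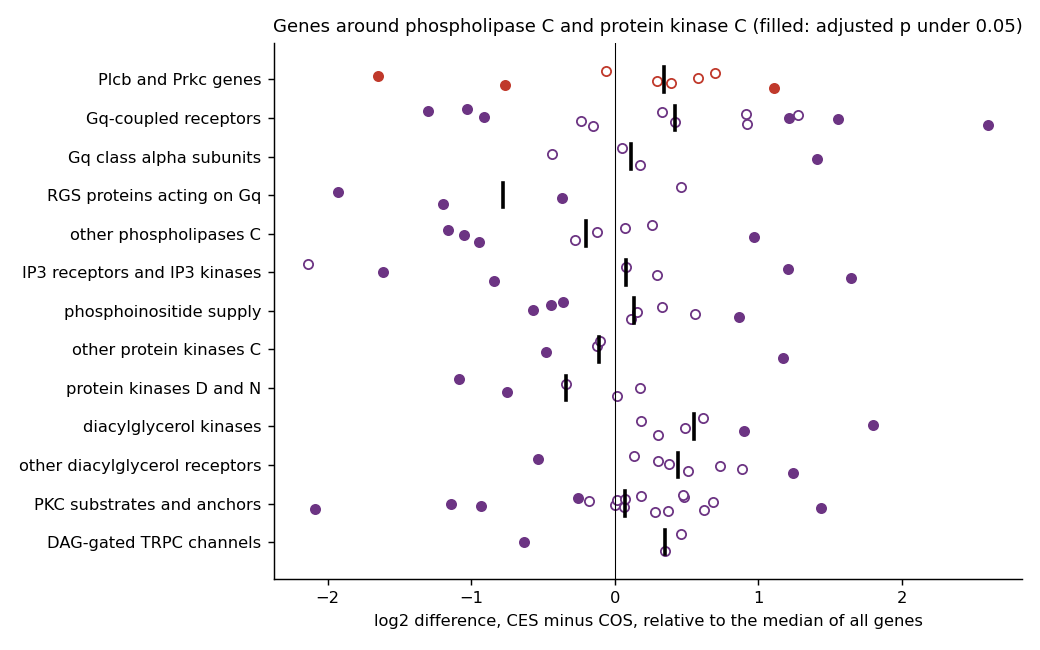
CES minus COS log2 difference relative to the median of all genes for the 8 quantified Plcb and Prkc genes (red) and the 87 quantified genes of the pathway list (purple), by group. Filled points have an adjusted p under 0.05 and short lines mark group medians. Among receptors, Adra1d lies at 2.60, among RGS proteins Rgs4 lies at -1.92, and the median of the Plcb and Prkc genes is 0.34.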

How the data were processed

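The authors deposited the scanner output of each array, with the intensity of every spot and of its local background in both channels, extracted with Agilent Feature Extraction 10.7.3.1 (version per the labels), and a table of log2 values. Each deposited log2 column was found to be, up to a constant, the log2 of median signal less background, and served as an alternative. Following the methods, spots counted as valid where foreground reached 2 times background. From the mean signal the local background median was subtracted, the result was scaled to the median valid spot of its channel, spots of a gene valid in all 8 rats were averaged, and log2 was taken. The iterative renormalization that the study applied after its scaling was not repeated. Genes kept the name in the files, and of 10 transcript accessions of the 9 genes 9 matched RefSeq, all under the same symbol. Positions of probes come from the files (rn4, 1-based). The depth is unknown in counts, and the number of arrays limits the precision; the median standard error was 0.20 on the log2 scale.

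CES was compared with COS with limma 3.58.1 in R 4.3.3, two-sided, with the dye as a fixed term, the array as a random block (statmod 1.5.0; correlation -0.01) and Benjamini-Hochberg adjustment over all genes, probes or ratios. On simulated data of this layout with 200 of 21332 genes changed, 67% of changes of 2 and 11% of changes of 1 on the log2 scale were recovered, with 3 false calls among 81. The data gave far more calls (1238 higher and 6038 lower), which eases the adjusted threshold. These shares therefore do not measure the recovery in the data. Pairing was checked: same-numbered rats share a dye, and their deviations correlated at 0.21 to 0.34, against 0.21 to 0.44 for rats of the same dye with another number. With 4 pairs of each kind and overlapping ranges, this cannot tell whether the numbers share anything beyond the dye. Blocking by number, run as an alternative, called 1241 of all genes higher and 6624 lower.

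Named were all 9 genes, all other protein kinases C (some results that this rule covers are not reported here), up to 2 genes per pathway list that were called, did not overlap between groups and lay farthest from the median of all genes, and the 3 genes closest in pattern to the called gene that rose most and the one that fell most. Further called pathway genes (Grm5, Hrh1, Tacr1, Gna14, Rgs3, Plcd4, Plcd1, Itpr1, Inpp5a, Dgkb, Unc13b, Akap5, Gnb2l1, Pick1), and Rgs8, Gnaq and Gna11, were named after their values were seen. The genes and lists were chosen with earlier results of these data known. Alternatives covered normexp (offset 50), the processed intensity, loess with Aquantile, quantile, the common scaling, the filters, the blocks, the brightest probe, the methods' t-test, the deposited table and leaving out each rat; equal weight for probes and leaving out spots the software marked as outliers were added after seeing the data. Figures were drawn with Python 3.11.15, numpy 2.4.6, pandas 2.3.3 and matplotlib 3.10.9; data.table (version 1.17.8) and jsonlite 2.0.0 read the files.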

Additional observations from a re-analysis of the deposited data

Results flagged for a closer look

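A single rat lay far from the other 3 of its group in 4 of the 82 groups of 4 values examined, where chance marks about 1 in 20 groups. In 2 of the 4 that rat was CES replicate 2. Prkcd was at 3.18 in that rat, against 1.11 to 1.44 in the rest of CES. Chn1 was at 5.76 in it, against 6.45 to 6.58. Pkn2 was -2.04 in CES replicate 4 and -1.31 to -1.21 in the other CES rats. The log2 ratio of the first to the last Plcb1 probe was 0.37 in COS replicate 1 and between -0.06 and -0.02 in the other COS rats.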

How the results depend on the processing

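The counts of calls depended on the background correction, the scaling and single rats, while the median relative difference of the Plcb and Prkc genes was 0.34 as reported and 0.23 to 0.43 over the 24 alternatives, the highest being where Plcb3 dropped out because every rat had to be well above background, and no called gene named under the rule changed sign. Called higher and lower were 1 and 2 of the Plcb and Prkc genes, 13 and 23 of the pathway genes and 1238 and 6038 of all genes. In the same order, normexp gave 0 and 0, 4 and 4, and 125 and 461. Loess with Aquantile gave 3 and 0, 22 and 11, and 3323 and 2225. Quantile normalization gave 3 and 1, 20 and 12, and 3183 and 2142. The common scaling gave 3 and 0, 21 and 8, and 3348 and 1718. No filter on valid spots gave 0 and 0, 6 and 13, and 404 and 2696. The deposited log2 table gave 3 and 0, 21 and 11, and 3275 and 1927. A foreground of 3 times background left 12 pathway genes and 2828 of all genes called lower, and requiring every rat well above background left 1 of the Plcb and Prkc genes called lower, Plcb3 being left out. The methods' t-test gave 0 calls after Benjamini-Hochberg in every set (smallest adjusted p = 0.0766); at its unadjusted threshold of 0.05 it gave 0 higher and 3 lower of the Plcb and Prkc genes, 10 and 20 of the pathway genes and 772 and 5331 of all genes. Leaving out 1 rat gave 0 to 2 of the Plcb and Prkc genes higher and 0 to 2 lower, 4 to 17 and 4 to 26 of the pathway genes, and 257 to 1855 and 914 to 7012 of all genes. Without COS replicate 3, 0 of the Plcb and Prkc genes were called either way, and without CES replicate 1, 0 were called lower. The cause of these changes was not tested.

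With the replicate number as a block the calls on the Plcb and Prkc genes were the same, and the only change among their ratios was that of Prkce (adjusted p = 0.0346). With 4 rats a group, changes of 1 on the log2 scale were mostly missed in simulated data. Far fewer genes were changed there than were called here, so that share does not carry over. A gene that was not called is still not shown to be unchanged.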
